A study of Danio rerio with 4 samples.

Results

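The genes described here encode the proteasome and the ubiquitin-conjugating (E2) enzymes of zebrafish (Danio rerio). They were chosen by symbol: psma, psmb, psmc, psmd, psme, psmf or psmg followed by a digit, or any symbol that starts with ube2. The rule found 92 of the 14792 named genes of the deposited expression table, namely 54 proteasome genes, 37 E2 genes and psmc3ip. The last matches the pattern by its name, but in mammals and yeast its product is a partner of recombinases in meiosis and not a proteasome subunit. It is counted among the 92 and kept out of every role group, and it was at 13.99 against 56.3 TPM (log2 ratio −1.93), in the units explained below.

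Ubiquitin is a small protein that is attached to other proteins by a relay of E1 activating, E2 conjugating and E3 ligase enzymes, and chains of it can mark a protein for destruction. The 26S proteasome is the machine that destroys such proteins. Its 20S core is a barrel of stacked α and β rings with the protease sites inside, and its 19S cap holds ATPases that unfold substrates and non-ATPase subunits that bind and remove ubiquitin. The early embryo runs on RNA and protein laid down by the mother, and turnover of maternal proteins is part of the passage to zygotic genome activation (ZGA), when the embryo starts to transcribe its own genes.

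The study pooled wild-type embryos of the AB, TAB14 or TAB5 strains. The long-read (PacBio) libraries came from polyadenylated RNA of pools of 15 embryos, 1 library from untreated and 1 from injected embryos. The injected pool received 0.2 nmol of the RNA polymerase inhibitor α-amanitin in the first cleavages. Both libraries are labelled 6 hours post fertilization, but the title of the injected sample places it before ZGA. Its source name also gives an earlier stage, by cell number. The short-read samples were untreated pools of about 20 embryos at 2.5 and 5.25 hours, made from rRNA-depleted total RNA, and their own files were not analysed here. A whole-embryo pool mixes all cell types, and fewer cells of a type cannot be told apart from less RNA per cell.

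Levels are given in TPM, a length-scaled share of all transcripts of a library, summed over the RefSeq transcripts of a gene, in a column named for the control (ctrl) and a column named for α-amanitin (amanitin). The sources used here do not say which reads were quantified, so a ratio between the columns may contrast treatment, stage or both. If the columns hold the short-read pools, the contrast is of stage. If they hold the long-read samples, stage may differ as well, since the labels of the injected pool disagree on it. Treatment and stage then cannot be told apart. PacBio transcripts of the same genes stand in the table under their own numbers, could not be joined to genes and took 55.6% of TPM in the ctrl column and 58.8% in the amanitin column. A gene's RefSeq value may therefore be only part of its RNA. The log2 ratio compares (ctrl TPM + 1) with (amanitin TPM + 1), which understates changes of low genes, and a gene is called higher or lower when past 2-fold. With 1 library per group there is no replicate check, no error and no p-value for any difference, and TPM keeps no depth. Every pair of values below gives the ctrl column first.

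As a whole the genes were moderately to strongly expressed, and their values were on balance close to equal between the columns. Their summed RefSeq TPM was 4016 in the ctrl column and 4369 in the amanitin column. Of the 92 genes, 70 reached 10 TPM in at least 1 column. In the ctrl column psmb4 was highest (175 TPM), followed by psme3 (158) and psma3 (147), and psmb4 stood above 97.6% of all named genes. In the amanitin column ube2q2 was highest (194 TPM), followed by psmd6 (169) and psma3 (166).

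At least 2-fold higher in the ctrl column were 18 of the 92 genes (19.6%), where 22.5% of all named genes were. At least 2-fold lower were 19 (20.7%), against 25.7% of all named genes. The members were more abundant than most genes, with a median of 29.3 TPM in the ctrl column against 3.27 TPM over all named genes. Among those at 10 TPM or more in 1 or both columns, the shares were 27.0% higher and 42.0% lower. Of the 70 members at that level, 12 (17.1%) were higher and 16 (22.9%) lower. For the proteasome genes of that level these counts were 6 and 6 of 41 (14.6% each), and for the E2 genes 6 (21.4%) and 9 (32.1%) of 28. The members' shares were thus near those of all named genes, and below them at the 10 TPM level. Without the 19 members under 1 TPM in 1 column or both, 11 of 73 were higher and 15 lower, beside 1436 and 2822 of the 7522 named genes of at least 1 TPM in both columns. The median log2 ratio was −0.05 for the proteasome genes and −0.15 for the E2 genes, beside 0.00 for all named genes and −0.56 for those of at least 10 TPM. The middle 50% of log2 ratios spanned 1.07 units for proteasome genes, 2.11 for E2 genes and 3.20 for all named genes, all at the 10 TPM level. That level admits genes that are high in 1 column alone. Without it the spans were 1.03, 1.92 and 1.87, so the E2 span was then not narrower than that of all named genes. For genes of at least 1 TPM in both columns they were 0.98, 1.38 and 2.18. Scaling the columns so that genes of at least 1 TPM in both had a median ratio of 0 added 0.49 to every log2 ratio. The member counts were then 26 higher and 11 lower, beside 4508 higher and 2772 lower of the 14792 named genes. The proteasome and E2 medians became 0.43 and 0.33, beside 0.49 for all named genes, which the scaling moved by the same amount.

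**Figure D1:**
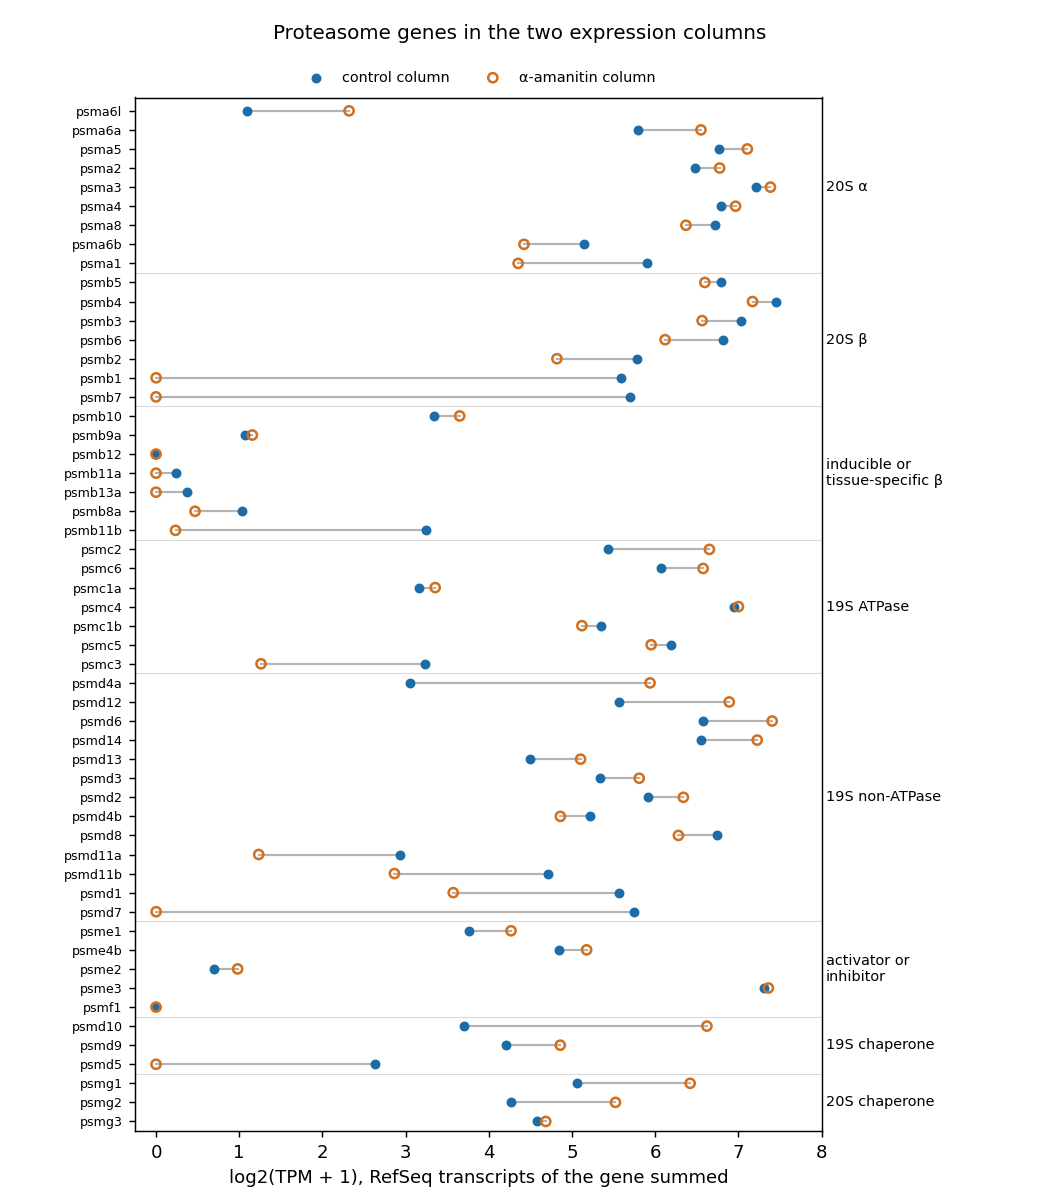
Level of each of the 54 proteasome genes, as log2(TPM + 1), in the ctrl column (filled blue) and the amanitin column (open orange), 1 value per column, grouped by role and joined by a grey line. Most α and β subunits lie near each other in both columns, while psmb1, psmb7, psmd7 and psmd5 sit at or near 0 in the amanitin column alone. The inducible or tissue-specific β genes are low in both.

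The α subunits form the outer rings of the 20S core and its gate. Of 9 genes, 7 were within 2-fold between the columns, beside 7666 of the 14792 named genes, and the median log2 ratio was −0.17. Values were 147 against 166 TPM for psma3, 108 against 137 TPM for psma5, 110.1 against 124 TPM for psma4 and 88.5 against 108 TPM for psma2, each lower in the ctrl column by less than 2-fold, and higher there once scaled. The gene psma8, whose mammalian counterpart is an α subunit of the testis, was at 104 against 81.7 TPM (log2 ratio 0.35). Only psma1 was at least 2-fold higher, at 58.7 against 19.4 TPM (log2 ratio 1.55). The lowest ratio among α genes of at least 10 TPM was that of psma6a, at 54.4 against 92.7 TPM (log2 ratio −0.76), and the low psma6l, at 1.14 against 3.995 TPM, was the 1 α gene past 2-fold lower (−1.22).

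The constitutive β subunits form the inner rings, where Psmb5, Psmb6 and Psmb7 carry the protease sites. All 7 had a higher value in the ctrl column, beside 7285 of the 14792 named genes and 2778 of the 6875 of at least 10 TPM. Scaling raises every ratio, so it kept this by construction. The median log2 ratio of the 7 was 0.69, and their summed TPM was 677 against 428. Of the catalytic subunits, psmb5 was at 110.004 against 95.8 TPM (log2 ratio 0.20) and psmb6 at 111 against 68.5 TPM (log2 ratio 0.69), both within 2-fold. The third, psmb7 (NM_001045564), was at 50.8 TPM in the ctrl column and listed at 0 in the amanitin column. Among the structural subunits, psmb4 was at 175 against 143 TPM (log2 ratio 0.29), psmb3 at 129 against 93.6 TPM (log2 ratio 0.46) and psmb2 at 54.1 against 27.2 TPM (log2 ratio 0.96). The structural psmb1 (NM_001003889) was at 47.04 against 0.000968 TPM (log2 ratio 5.58). Unscaled, both genes past 2-fold, psmb1 and psmb7, were those with a value under 1 TPM in the amanitin column. Scaled, psmb2 (log2 ratio 1.45) and psmb6 (1.18) were past 2-fold as well. That made 4 of the 7, beside 4508 of the 14792 named genes past 2-fold higher. Both psmb1 and psmb7 had an intron-matched long-read model in each library. A listed 0 can be a failed estimate, and whether reads of psmb1 and psmb7 went to their PacBio transcripts was not tested.

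Inducible and tissue-specific β genes were low. In mammals Psmb8, Psmb9 and Psmb10 replace the constitutive catalytic subunits in the immunoproteasome, and Psmb11 is a subunit of the thymus. Of the 7 genes here, psmb10 alone reached 10 TPM, at 9.102 against 11.6 TPM (log2 ratio −0.31). The others were psmb9a at 1.098 against 1.23 TPM, psmb8a at 1.04 against 0.384 TPM, psmb13a at 0.296 TPM against a listed 0, and psmb11a at 0.177 TPM against a listed 0. The gene psmb11b was at 8.47 against 0.176 TPM (log2 ratio 3.01), the 1 gene of this group past 2-fold. In the RefSeq gene table of assembly GRCz12tu the coding genes psmb13a, psmb8a, psmb12 and psmb9a follow each other in that order, between mhc1uba, a class I histocompatibility gene, and tap2a, a peptide transporter gene. The listed values of this cluster reached 1.23 TPM at most. One of its genes, psmb12 (NM_131676), was listed at 0 in both columns yet had a long-read model in each library: an intron-matched model of 823 bases in the untreated library, against a reference of 853 bases, and a contained model of 415 bases in the amanitin library. It was the 1 gene of the 7 with any model. Its RefSeq value thus does not show that its RNA was absent.

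The 19S ATPases (psmc genes) form the ring that unfolds substrates. Of 7, 5 were within 2-fold, beside 7666 of the 14792 named genes, and the median log2 ratio was −0.06. Levels were 122 against 127 TPM for psmc4, 72.2 against 60.9 TPM for psmc5 and 66.1 against 94.4 TPM for psmc6. The gene psmc2 was at 42.3 against 99.6 TPM (log2 ratio −1.22), the lowest ratio of the group, and psmc3 was at 8.41 against 1.399 TPM (log2 ratio 1.97), the highest. In the amanitin column psmc3 was the lowest of the 7, and in the ctrl column psmc1a alone was lower. The gene psmc3 had 2 models from untreated and 1 from injected embryos, of which none matched the introns of the reference.

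The 19S non-ATPase subunits, the largest of the proteasome role groups, also spanned their widest range of log2 ratios, from −2.89 to 5.75. The upper end is that of psmd7, which was near 0 in the amanitin column. Of 13 genes, 4 were past 2-fold higher and 2 past 2-fold lower, beside 22.5% and 25.7% of all named genes. The median log2 ratio was −0.42. The ubiquitin receptor gene psmd4a had the lowest ratio, at 7.28 against 60.3 TPM (log2 ratio −2.89), and psmd12, of the lid, followed at 46.2 against 118 TPM (log2 ratio −1.33). The deubiquitinase gene psmd14 was at 92.4 against 149 TPM (log2 ratio −0.68) and the lid gene psmd6 at 94.5 against 169 TPM (log2 ratio −0.83), both within 2-fold. On the other side, the scaffold gene psmd1 was at 46.3 against 10.9 TPM (log2 ratio 1.99), while psmd2, the other large scaffold, was at 59.3 against 79.9 TPM (log2 ratio −0.42). The lid genes psmd11b and psmd11a were at 25.1 against 6.29 TPM (log2 ratio 1.84) and 6.63 against 1.35 TPM (log2 ratio 1.70). The partner of Psmd14, encoded by psmd7 (NM_199789), was at 52.8 against 0.001202 TPM (log2 ratio 5.75), and it had intron-matched models of 1523 bases in the untreated library and 1525 bases in the amanitin library, against a reference of 1511 bases. Like psmb1 and psmb7, psmd7 thus had a value at or near 0 in a column whose matching long-read library held an intron-matched model of the gene.

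Genes of caps other than 19S, which open the core without using ubiquitin, were within 2-fold. The nuclear activator gene psme3 was at 158 against 163 TPM (log2 ratio −0.05), psme4b, whose mammalian counterpart is linked to degradation of acetylated histones, at 27.8 against 35.1 TPM (log2 ratio −0.33), and psme1 at 12.5 against 18.3 TPM (log2 ratio −0.51). Its partner psme2 was low, at 0.622 against 0.974 TPM. The inhibitor gene psmf1 was listed at 0 in both columns but had an intron-matched model in each library, of 1302 bases (untreated) and 1338 bases (α-amanitin).

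Assembly chaperones, which help to build the complex and then leave, had mostly lower values in the ctrl column. So did 4097 of the 6875 named genes of at least 10 TPM, with 42.0% past 2-fold lower. The 3 chaperone genes of the 20S core were psmg1 at 32.3 against 84.6 TPM (log2 ratio −1.36), psmg2 at 18.3 against 44.97 TPM (log2 ratio −1.25) and psmg3 at 22.9 against 24.7 TPM (log2 ratio −0.11). Scaled, none of the 3 was past 2-fold and psmg3 had the opposite sign. Of the 19S chaperones, psmd10 (gankyrin) was at 12.03 against 97.4 TPM (log2 ratio −2.92), the lowest ratio of any proteasome gene. The gene psmd9 was at 17.4 against 28.01 TPM (log2 ratio −0.66). In contrast, psmd5 was at 5.18 against 0.000138 TPM (log2 ratio 2.63). Summed over the 20S chaperones the level was 73.5 against 154 TPM. The sum of the α, β, ATPase and non-ATPase subunits was 2376 against 2395 TPM. Over those subunits of at least 1 TPM in both columns, which leaves out psmb1, psmb7 and psmd7, it was 2225 against 2395 TPM.

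**Figure D2:**
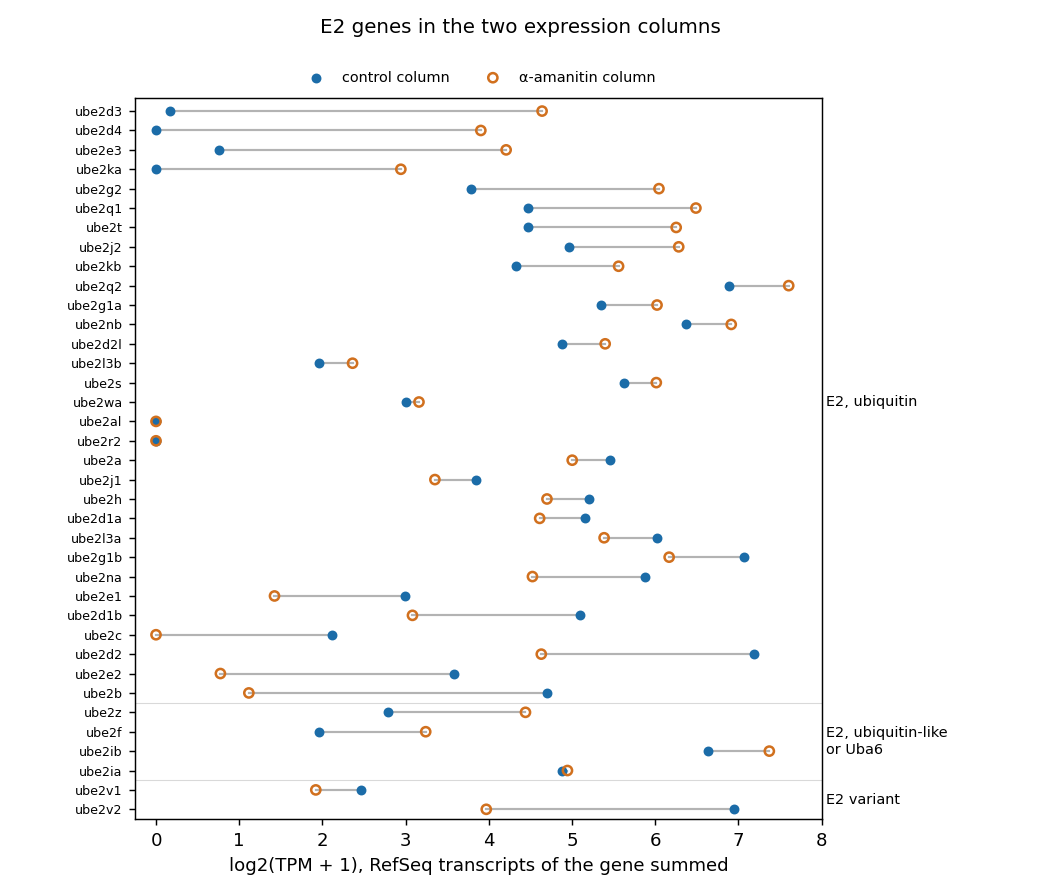
Level of each of the 37 E2 genes, as log2(TPM + 1), in the ctrl column (filled blue) and the amanitin column (open orange), 1 value per column, grouped by role. The genes ube2d3, ube2d4, ube2e3 and ube2ka are near 0 in the ctrl column alone. Among those higher in the ctrl column are ube2b, ube2v2, ube2e2 and ube2d2.

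The E2 genes that serve ubiquitin had log2 ratios from −4.47 to 3.59, with a median of −0.15. Of 31, 7 were past 2-fold higher in the ctrl column and 9 past 2-fold lower, beside 22.5% and 25.7% of all named genes. The middle 50% of their log2 ratios spanned 2.04 units, near the 1.87 of all named genes. The ube2d family, broadly acting E2s that work with many E3 ligases, had genes past 2-fold in both directions. The gene ube2d2 was at 145 against 23.8 TPM (log2 ratio 2.56) and ube2d1b at 33.1 against 7.47 TPM (log2 ratio 2.01), whereas ube2d3 was at 0.124 against 23.9 TPM (log2 ratio −4.47). The related ube2d4 was listed at 0 against 13.97 TPM, and ube2d1a and ube2d2l were within 2-fold, at 34.8 against 23.4 TPM and 28.4 against 41.2 TPM. Summed over these 6 genes, the family was at 241 TPM in the ctrl column and 134 TPM in the amanitin column. The ube2e family was split as well, with ube2e2 at 10.99 against 0.71 TPM (log2 ratio 2.81), ube2e1 at 6.98 against 1.68 TPM (log2 ratio 1.57) and ube2e3 at 0.689 against 17.5 TPM (log2 ratio −3.45). The genes ube2d3, ube2d4 and ube2e3, each under 1 TPM in the ctrl column, had an intron-matched model in both libraries. In the untreated library these were of 1310, 1785 and 1527 bases. Their low ctrl values thus do not show that the RNA was absent, and whether their reads went to PacBio transcripts was not tested. Members of each family are alike in sequence and can share reads, so the division of a family's sum among them is less certain than the sum.

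E2 partners of the anaphase-promoting complex, the E3 ligase that ends mitosis, are Ube2c, which starts chains, and Ube2s, which extends them. The gene ube2s was at 48.4 against 63.6 TPM (log2 ratio −0.39), and ube2c was low, at 3.34 against 6.69e-08 TPM (log2 ratio 2.12), with an intron-matched model in each library. Of the E2s of degradation at the endoplasmic reticulum, ube2g2 was at 12.8 against 65.04 TPM (log2 ratio −2.26) and ube2j2 at 30.3 against 76.9 TPM (log2 ratio −1.32), both past 2-fold lower, while ube2j1 was at 13.4 against 9.21 TPM (log2 ratio 0.50). The E2 gene of the Fanconi anaemia DNA repair pathway, ube2t, was at 21.1 against 75.2 TPM (log2 ratio −1.78). The gene ube2q1 was at 21.1 against 88.8 TPM (log2 ratio −2.02), and ube2q2, the most abundant E2 of the amanitin column, at 117 against 194 TPM (log2 ratio −0.72). The ligase-specific ube2l3a was at 64.1 against 40.8 TPM (log2 ratio 0.64), and ube2h at 35.96 against 24.98 TPM (log2 ratio 0.51). Listed at 0 in both columns were ube2al and ube2r2, which had 3 and 1 models from untreated embryos and 2 and 1 in the amanitin library.

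E2 genes of ubiquitin-like proteins and of Uba6 all had lower values in the ctrl column, 2 of 4 past 2-fold. Scaled, 1 was past 2-fold and ube2ia had the opposite sign. Of the 6875 named genes of at least 10 TPM, 4097 had a lower value in the ctrl column and 2778 a higher one. The share past 2-fold lower was 42.0% there, and 25.7% over all named genes. The SUMO E2 has 2 genes, ube2ib at 98.04 against 165 TPM (log2 ratio −0.74) and ube2ia at 28.4 against 29.8 TPM (log2 ratio −0.07). The gene ube2f, an E2 for NEDD8, was at 2.901 against 8.46 TPM (log2 ratio −1.28), and ube2z, which in mammals takes ubiquitin from the E1 Uba6, at 5.88 against 20.7 TPM (log2 ratio −1.66). The E2 variants lack the catalytic cysteine and steer their partner Ube2n to chains used in signalling and repair. They had higher values in the ctrl column: ube2v2 at 122 against 14.7 TPM (log2 ratio 2.97) and ube2v1 at 4.52 against 2.79 TPM (log2 ratio 0.54). The partner genes were at 57.7 against 22.02 TPM (log2 ratio 1.35) for ube2na and 81.8 against 119.6 TPM (log2 ratio −0.54) for ube2nb. The log2 ratio of ube2v2 exceeded those of both partner genes.

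Gene pairs whose names differ by a final a or b, most of them fish duplicates, gave a comparison within a single role. Of 12 such pairs, 7 had both genes at 10 TPM or more in a column. Of all named genes at that level, 2778 had a positive log2 ratio and 4097 a negative one. Their lower and upper quartiles were −1.98 and 1.22. Unrelated genes can thus also differ in sign and by more than 1 unit, and how often they do was not counted. In 4 of the 7 pairs the log2 ratios of the partners had opposite signs, and in 6 they differed by more than 1 unit. Without that count, these numbers cannot be called particular to paralogs. The widest gap was that of the ubiquitin receptor, where psmd4a made up 16.8% of the pair's TPM in the ctrl column and 68.3% in the amanitin column, with psmd4b at 36.04 against 28.05 TPM (log2 ratio 0.35). The α subunit psma6a made up 61.3% of the pair's TPM in the ctrl column and 81.9% in the amanitin column, with psma6b at 34.3 against 20.5 TPM (log2 ratio 0.72). Of the E2 pairs with opposite signs, ube2g1a was at 39.7 against 63.98 TPM (log2 ratio −0.67) and ube2g1b at 133 against 70.9 TPM (log2 ratio 0.90), and for ube2na and ube2nb, with the values given above, the first made up 41.4% of the pair's TPM in the ctrl column and 15.5% in the amanitin column. The pair ube2a and ube2b, the vertebrate versions of yeast Rad6, which ubiquitinates histone H2B, were at 42.98 against 31.1 TPM (log2 ratio 0.46) and 25.04 against 1.17 TPM (log2 ratio 3.59). The signs stayed opposite in all 4 pairs after scaling, though ube2nb was then close to no change, at −0.06. Partners can share reads, so reads of one may have been given to the other, which was not tested.

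**Figure D3:**
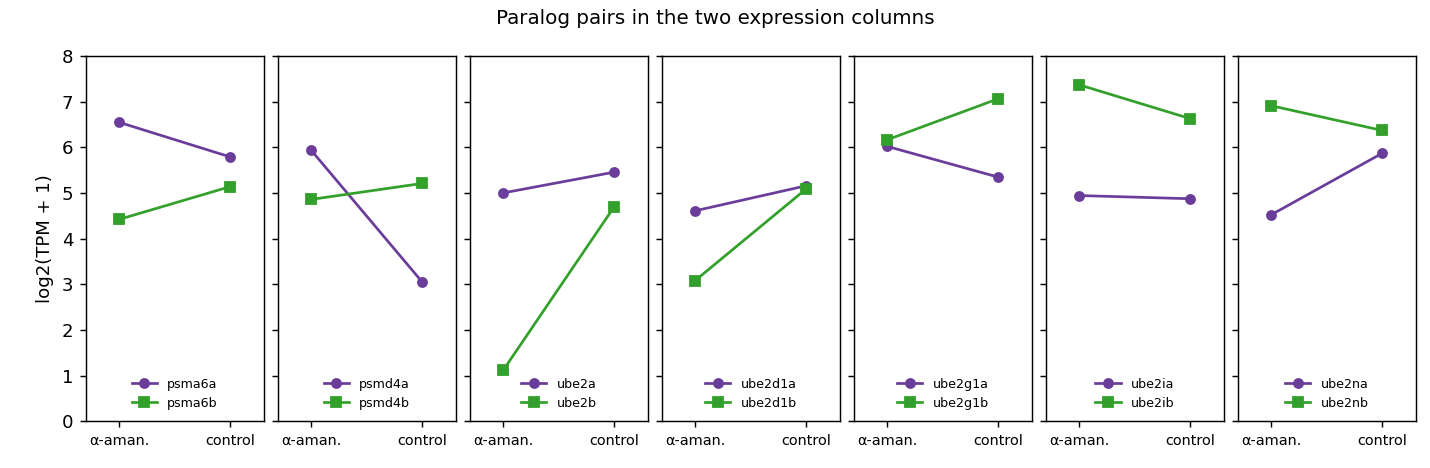
Level, as log2(TPM + 1), of both genes of 7 paralog pairs in the α-amanitin and control columns, 1 value per column. The lines of psma6a and psma6b, psmd4a and psmd4b, ube2g1a and ube2g1b, and ube2na and ube2nb run in opposite directions.

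Other genes of the pathway were taken from general lists of E1 enzymes, ubiquitin and ubiquitin-like precursors, proteasome-associated genes, anaphase-promoting complex, cullin-RING ligases and deubiquitinases. Of the ubiquitin and ubiquitin-like precursors, 9 of the 13 in the table were at least 2-fold higher in the ctrl column and 0 lower. This stands beside 22.5% and 25.7% of all named genes, and the median log2 ratio was 1.81. Scaled, 11 were higher and 0 lower, beside 4508 and 2772 of the 14792 named genes. All values here are of the genes on the list. The precursors included the polyubiquitin genes ubb, at 190.03 against 43.3 TPM (log2 ratio 2.11), and ubc, at 25.5 against 1.26 TPM (log2 ratio 3.56). The highest ratio was that of the interferon-inducible isg15, at 21.5 against 0.155 TPM (log2 ratio 4.29), and the lowest at 10 TPM was that of nedd8, at 68.4 against 71.4 TPM (log2 ratio −0.06).

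**Figure D4:**
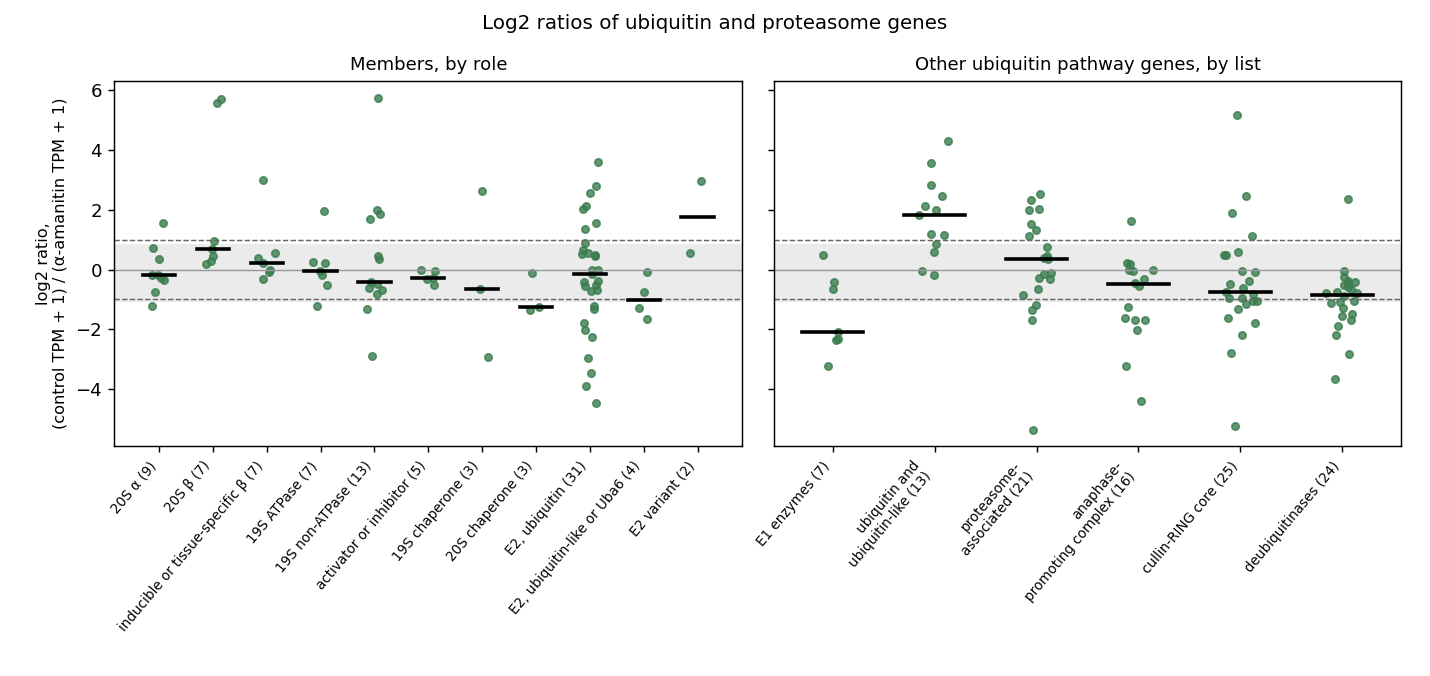
Log2 ratio of (ctrl TPM + 1) to (amanitin TPM + 1) for each gene (points), by role of the members (left) and by list of other ubiquitin pathway genes (right), with the number of genes in brackets and the median as a black bar. The grey band spans the middle 50% of all named genes, and dashed lines mark 2-fold. All 7 constitutive β genes lie above 0, as do 7285 of the 14792 named genes. The ubiquitin and ubiquitin-like list has a median of 1.81.

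Of the E1 genes, 4 of 7 were at least 2-fold lower and 0 higher, with a median log2 ratio of −2.08, and the same counts held after scaling. The lowest was uba3, of the NEDD8 E1, at 20.4 against 198 TPM (log2 ratio −3.22), and the highest sae1, of the SUMO E1, at 98.8 against 69.8 TPM (log2 ratio 0.50). Its partner uba2 was at 27.4 against 119 TPM (log2 ratio −2.08), and uba1, the main ubiquitin E1, at 43.9 against 58.3 TPM (log2 ratio −0.40). Beside these lists, 25.7% of all named genes were lower and 22.5% higher (scaled, 2772 and 4508 of 14792). At 10 TPM or more in a column, 42.0% were lower and 27.0% higher (scaled, 2282 and 2242 of 6875). Deubiquitinases were lower in 11 of 24 and higher in 1, with a median of −0.84 (scaled, 7 lower and 1 higher). They ranged from usp37 at 8.66 against 122 TPM (log2 ratio −3.67) to otub1a at 32.5 against 5.54 TPM (log2 ratio 2.36). Anaphase-promoting complex genes were lower in 7 of 16 and higher in 1 (median −0.50; scaled, 6 and 1). There cdc23 was at 43.3 against 13.3 TPM (log2 ratio 1.63), and fbxo5, an inhibitor of the complex, was listed at 0 against 20.3 TPM while it had models in both libraries. Cullin-RING genes were lower in 9 of 25 and higher in 4 (median −0.75; scaled, 5 and 5), from cul1b at 3.08e-08 against 36.3 TPM (log2 ratio −5.22) to gps1 at 35.2 against 0.00715 TPM (log2 ratio 5.17). Proteasome-associated genes were higher in 7 of 21 and lower in 4 (median 0.36; scaled, 8 and 2). The subunit gene shfm1 was at 20.7 against 2.78 TPM (log2 ratio 2.52) and the deubiquitinase gene uchl5 at 28.6 against 6.35 TPM (log2 ratio 2.01). The assembly gene pomp was at 54.4 against 86.3 TPM (log2 ratio −0.66) and the unfoldase gene vcp at 123 against 316 TPM (log2 ratio −1.36). The gene ngly1, which processes the factor that switches on proteasome genes in mammals, was at 0.00123 against 39.9 TPM (log2 ratio −5.35). Like fbxo5, the genes cul1b, gps1 and ngly1 were near 0 in 1 column while they had models in both libraries. Their values there thus do not show that the RNA was absent.

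The long-read libraries named nearly the same members. A transcript model (a collapsed, non-redundant long-read structure) was found for 76 of the 92 genes in each library (82.6%), with 74 in both, 2 from untreated embryos alone and 2 from injected embryos alone. Of the genes with a model in either library, 94.9% of members had one in both, against 72.2% of all reference genes. The members are more abundant than most genes, and at 10 TPM or more in a column 91.4% of members and 77.5% of named genes had a model in either library. Of those, 62 of 64 members and 4171 of 5331 named genes had one in both. In the untreated library alone were psmc1a, an ATPase gene at 7.95 against 9.23 TPM, and psmd5, each with 1 intron-matched model. In the amanitin library alone were psmg2, with 2 models, and psme4b, with 1 model of 1729 bases against a reference of 6974 bases. The values of psmd5 and psmg2 were higher in the column of the same name as the library, and those of psmc1a and psme4b differed by less than 2-fold.

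No model was found for 14 members. Of these, 6 reached 10 TPM: psma6b, psmb6, psmd2, psme1, ube2e2 and psmb10, of which psmb6 was the highest, at 111 TPM in the ctrl column. The catalytic subunit psmb6 was thus the 1 constitutive β gene without a model, while psmd2, at 79.9 TPM in the amanitin column, was the 1 non-ATPase gene without. Among the 78 members with a model in either library, 34 were past 2-fold in either direction (43.6%), and among the 14 without, 3 were (21.4%). Of all named genes, 22.5% were past 2-fold higher and 25.7% lower. Only 6 of the 14 reached 10 TPM, and the pseudocount understates changes of low genes, so these shares cannot be compared directly. Members listed at 0 in both columns in spite of models in both libraries numbered 4 of 74 (5.41%), against 82 of 5451 named genes (1.504%). With a cut of under 1 TPM in both columns, the shares were near equal, at 4 of 74 (5.41%) and 302 of 5451 (5.54%). Another 6 of the 74 (8.11%) were under 1 TPM in 1 column and at 10 TPM or more in the other, against 8.86% of such named genes.

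A larger share of the models of proteasome genes than of E2 genes followed the reference introns. Class codes describe how a model relates to the nearest reference transcript: = for the same introns, j for a shared splice junction with another structure, and c for a model contained in the reference. In the untreated library 38 of 52 proteasome models were of class = (73.1%, 95% Wilson interval 59.7 to 83.2) and 26 of 59 E2 models (44.1%, 32.2 to 56.7), and the share over all models with a reference gene was 40.3%. In the amanitin library these were 35 of 49 (71.4%, 57.6 to 82.2), 25 of 51 (49.0%, 35.9 to 62.3) and 40.4%. The proteasome and E2 intervals did not overlap in the untreated library and overlapped in the amanitin library. Class j made up 11.5% and 16.3% of proteasome models, in the untreated and α-amanitin libraries, and 39.0% and 37.3% of E2 models, beside 30.4% and 32.6% of all models with a reference gene; the intervals were 5.397 to 22.97 and 27.6 to 51.7 in the untreated library, and 8.51 to 29.04 and 25.3 to 50.97 in the other. The shares over all models lay within the E2 intervals and above the proteasome intervals. Models of 1 gene share their source, so these intervals cover counting error alone. With the longest model at each locus alone, class = took 38 of 40 proteasome models and 25 of 37 E2 models in the untreated library (intervals 83.5 to 98.6% and 51.5 to 80.4%), and 35 of 40 and 24 of 38 in the amanitin library (73.9 to 94.5% and 47.3 to 76.6%). Class j was then 1 and 3 of the proteasome models and 9 and 9 of the E2 models. Over all reference genes, class = then took 3643 of 7082 and 3780 of 7172 models, and class j 1593 and 1719.

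**Figure D5:**
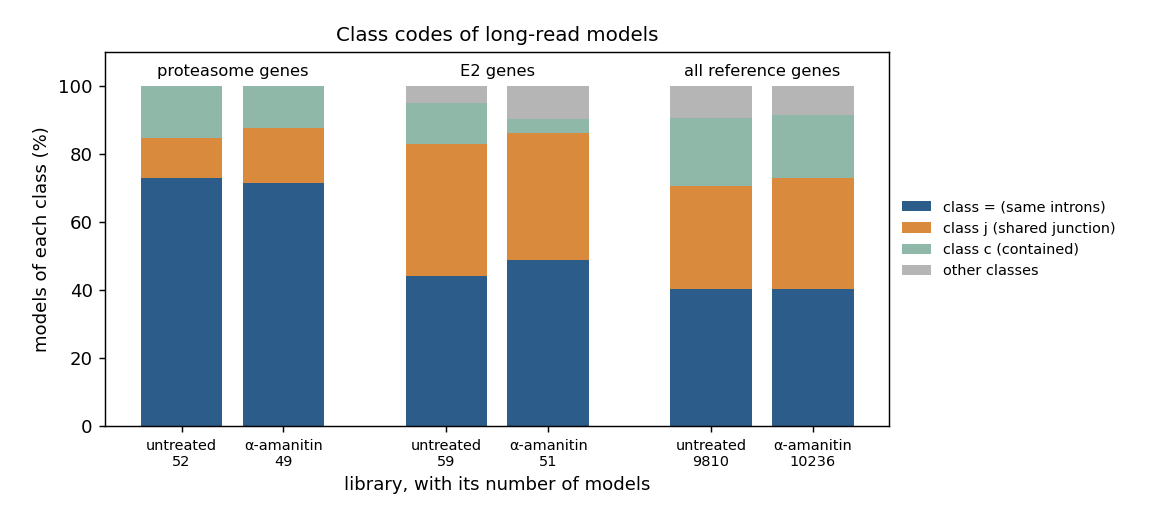
Share of long-read models in each class (stacked, in %) for proteasome genes, E2 genes and all reference genes in each of the 2 libraries, with the number of models below each bar. Class = takes 73.1% and 71.4% of proteasome models and 44.1% and 49.0% of E2 models.

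Class j models of E2 genes, whose share was near that of all genes, were found in both libraries. A class j model was found for 14 E2 genes in the untreated library and for 13 in the amanitin library, and 11 had one in both, namely ube2a, ube2al, ube2e1, ube2f, ube2g2, ube2ia, ube2l3b, ube2na, ube2q1, ube2q2 and ube2s. For proteasome genes it was found for 6 and 8, and psma5 and psmc3 had one in both. The gene ube2s had 4 models in the untreated library, 3 of class j with 2499 to 2814 bases, and 2 of class j in the amanitin library, of 2721 and 2892 bases; no model matched the introns of its reference of 2800 bases. For ube2l3b, all 3 models of the untreated library (1148 to 2801 bases) and both of the amanitin library (2131 and 2264 bases) were of class j and longer than the reference of 919 bases. The SUMO E2 gene ube2ia had the most models of the amanitin library among members, with 4, against 2 in the untreated library. The gene ube2g2 had 4 models from untreated and 3 from injected embryos, 1 of the latter of 877 bases on the opposite strand. For ube2z 3 models were found in the untreated library, against 1 in the amanitin library, and for ube2q2 4, against 2. The lid gene psmd6 had 3 models from untreated and 1 from injected embryos. Other opposite-strand models (class x) lay at ube2g1a in the untreated library (1263 bases) and at ube2al in the amanitin library (355 bases).

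The length of intron-matched models was mostly close to that of the reference. Divided by the length of the reference, it was at the median 1.02 in the untreated library (65 models) and 1.01 in the amanitin library (61 models), and 83.1% and 77.0% were within 10% of it, against 69.6% and 69.5% of all class = models. In 58 genes with a class = model in both libraries, the longest such models differed by a median of 31.5 bases, and in 36 by at most 50 bases. In 39 of the 58 the longer one was in the amanitin library, and in 18 in the untreated library. Over the class = models of all reference genes, the median length in bases was also greater in the amanitin library. The same count was not made for other genes, so this split cannot be called particular to the members. In 5 of the 58 genes the longest class = models differed by more than 500 bases. For ube2kb the lengths were 2625 bases in the untreated and 1408 bases in the amanitin library, with a reference of 1504. For ube2h they were 2815 and 3823 bases (reference 2758), for ube2j1 3175 and 2250 (2891), for ube2v2 1315 and 2133 (2105), and for the lid subunit psmd11b 2210 and 1608 (2633). Since these models share all introns, the difference lies in their first or last exons. The longest class = model relative to its reference was that of ube2j2 in the untreated library, with 3120 bases against 1071.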

How the data were processed

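Long-read (PacBio) transcripts were assembled with IsoSeq, mapped to the zebrafish build GRCz10 with GMAP, collapsed and compared with a reference transcriptome by Cuffcompare, per the labels and the series' design text. The submitters' processing notes also name bcl2fastq 1.8.3 and kallisto, without a role. The expression table holds log2(TPM + 1) values as deposited by the authors; its quantifier and reads are not given in the sources used here, and the values were turned back into TPM. Both columns were matched to groups by name, and 0 were left unmatched. Model tables gave lengths in bases as deposited by the authors, while their expression and coverage columns were 0 for every model, so depth is unknown.

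RefSeq transcripts were named from the Cuffcompare tables, or else from the RefSeq gene table (77 and 15 of the members), and summed per symbol. The log2 ratio used a pseudocount of 1 TPM, and its computation was tested on simulated data. Intervals are 95% Wilson intervals. Python 3.11.15, numpy 2.4.6, pandas 2.3.3, scipy 1.17.1 and matplotlib 3.10.9 were used. Members and lists were chosen with earlier results of these data known. The rule for named genes took, per role group or list, the highest and lowest ratio at 10 TPM or more, genes at 10 TPM or more in 1 column and under 1 TPM in the other, the 3 highest per column, genes with at least 3 models in a library, genes at 10 TPM or more with models in 1 library alone, and paralog pairs with both genes at 10 TPM or more. Other genes were named for their roles after their values were seen. Alternatives were another pseudocount, scaling, low-value filters, unsummed transcripts, a 4-fold threshold and stricter model rules. Some genes of the lists are not reported here by name.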

Additional observations from a re-analysis of the deposited data

How the results depend on the processing

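Of 136 recomputed counts, medians and shares, 90 stayed close to the value reported, 39 moved and 7 changed sign. A count was called close within 1.5-fold, and a median within 0.1 log2 units. The change from 18 to 26 members higher after scaling was thus called close. Of 90 recomputed ratios of single genes, 57 moved by more than 0.1. Those past 2-fold could not change sign, since a pseudocount keeps the sign and scaling added a constant of under 1 unit. Some genes under 2-fold did change sign with scaling, such as psma3, from −0.17 to 0.31. Scaling the columns to a median ratio of 0 had the widest reach. It left 11 members lower and gave median log2 ratios of 0.43 for the proteasome, 0.33 for the E2 genes and for the E2s of ubiquitin, 0.31 for 20S α, 0.43 for 19S ATPase, 0.0616 for 19S non-ATPase and 0.20 for activator or inhibitor genes, each with the opposite sign. Medians that kept their sign were 1.18 for 20S β, 0.72 for inducible β, −0.17 for 19S chaperones, −0.77 for 20S chaperones, −0.52 for E2s of ubiquitin-like proteins or Uba6 and 2.24 for E2 variants. In the lists they were −1.59 for E1 genes, 2.29 for ubiquitin precursors, 0.85 for proteasome-associated genes (2 lower), −0.0133 for the anaphase-promoting complex, −0.26 for cullin-RING genes (5 lower) and −0.36 for deubiquitinases (7 lower). With a pseudocount of 0.1 TPM the medians were 1.23 for inducible β, −1.13 for E2s of ubiquitin-like proteins or Uba6, 1.86 for E2 variants and −1.13 for deubiquitinases. A 4-fold threshold left 11 members higher and 8 lower. Over genes that reach 1 TPM in 1 or both columns, the E2 median, overall and for ubiquitin alone, was −0.39, and with RefSeq transcripts unsummed it was −0.26. Without genes under 1 TPM in 1 column or both, a setting added after seeing the data, 11 members were higher and the proteasome median was −0.17. With classes = and j alone, 6 members had models in the untreated library alone. With at least 2 models required, 26 members were found in the untreated library and 22 in the amanitin library, 16 and 12 of them in that library alone. With the longest model per locus, classes =, j and c made up 82.1%, 12.8% and 2.56% of member models in the untreated library and 75.9%, 15.2% and 3.80% in the amanitin library. The cause of these shifts was not tested beyond what each setting does by construction. With 1 library per group and unknown depth, no difference in TPM between the columns can be set against replicate or counting error.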

Other observations

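Within ube2q2, the most abundant E2 gene of the amanitin column, the 4 RefSeq transcripts did not share 1 direction. In the ctrl column they were of similar level, at 23.7 to 34.6 TPM. NM_001328204 was at 32.2 against 107 TPM, whereas NM_001328201 was at 34.6 against 18.4 TPM, and the remaining 2 were at 26.6 against 34.4 TPM and 23.7 against 34.1 TPM. Of the 4, 3 had a higher value in the amanitin column, 1 of them by more than 2-fold. For the α subunit psma6a, NM_001310044 was at 5.46 against 24.7 TPM and NM_153655 at 48.9 against 68.01 TPM. For the immunoproteasome subunit psmb10, NM_001002543 was at 6.37 against 11.6 TPM, and NM_001328552 was at 2.73 TPM against a listed 0. Transcripts of 1 gene share most of their sequence, and their division is less certain than their sum.

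Another 3 genes carry a proteasome or E2 symbol in the newer RefSeq gene table but another in the tables of the study, and were not counted. The gene si:rp71-45k5.4, now psma2b, was listed at 0 against 9.39 TPM with 1 model in the untreated library and 2 in the amanitin library, while psma2 was within 2-fold. The gene flj11011l, now ube2wb, was at 9.01 against 3.11 TPM (log2 ratio 1.28). The gene fam192a, now psme3ip1, was at 2.49 against 0.759 TPM (log2 ratio 0.99).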
